A study of Mus musculus with 14 samples.

Results

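The genes examined here were 10 regulators of the G1 phase of the cell cycle: the D-type cyclins Ccnd1, Ccnd2 and Ccnd3, their kinases Cdk4 and Cdk6, the kinase inhibitors Cdkn1a, Cdkn1b and Cdkn1c, the retinoblastoma gene Rb1 and the proto-oncogene Myc. A binding peak of the zinc-finger transcription factor PRDM16 belonged to a gene when the body of that gene was nearer to the peak's summit than the body of any other protein-coding gene (GRCm38). By this rule 26 of the 17587 peaks of wild-type (WT) ventricles belonged to 8 of the 10 genes, and Ccnd1 and Cdkn1c had none. Over all 21887 protein-coding genes, 32.6% had at least 1 such peak.

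Binding was measured by chromatin immunoprecipitation and sequencing (ChIP-seq) in C57BL/6 mouse embryos at E13.5 (embryonic day), when the ventricle wall grows by division of its muscle cells. The knockout arm was 1 PRDM16 library from ventricles of Prdm16 conditional knockout embryos (Prdm16cKO), and the driver of the deletion and the cells it affected are not given in the sources used here. Its WT counterpart was 2 PRDM16 libraries. The labels call the tissue whole heart, the protocol says that the atria were removed, and each sample pooled 3 hearts. The right ventricle (RV) and the left ventricle (LV) of WT embryos gave 2 PRDM16 libraries each, from pools of 10 to 12 ventricles. All WT samples carry the label mock for their genetic manipulation, and chromatin was fixed with EGS and formaldehyde. Every PRDM16 library, 7 in all, had a matching input library without antibody, whose values were not used here. The values for RV and LV are listed at the same 17587 WT peaks.

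D-type cyclins are made in response to growth signals and bind CDK4 or CDK6, and the active kinases phosphorylate the retinoblastoma protein, which then releases the E2F factors that switch on genes of DNA replication. The CIP/KIP inhibitors p21 (Cdkn1a), p27 (Cdkn1b) and p57 (Cdkn1c) hold cyclin-dependent kinases in check, and MYC raises the expression of many growth genes. In the embryonic heart this switch keeps cardiomyocytes cycling, and its shutdown accompanies their exit from the cell cycle after birth.

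Peaks overlapped promoter windows of 3 of the 5 members that have one in the RefSeq table (GRCm38.p6): Cdkn1b, Cdk6 and Cdkn1a. The start itself was covered at 2 of them, Cdkn1b and Cdk6, and the Cdkn1a peak ended 13 bp short of the second listed start. A window runs from 250 bases before a start to 50 bases after it, so that the start is base 251. Ccnd3 and Cdk4 have windows without a peak, and Ccnd1, Ccnd2, Cdkn1c, Rb1 and Myc have no window in the table. By window, 3 of the members' 7 overlapped a WT peak, against 6.57% of all 32851 windows. The windows below are shown because a summit lies inside them or, for the first start of Cdkn1a and for Cdk4, for comparison, as windows that no peak overlaps. The Cdk4 peak ended at 127063265, just before its window begins at 127063285, so that window is not far from binding. The 2 windows of Ccnd3 have no peak either and are not printed, but their motifs are counted too. All are on the plus strand, written 5′ to 3′, and capitals mark the motifs searched on both strands.
Cdkn1b, chr6:134920151-134920450, summit at base 257: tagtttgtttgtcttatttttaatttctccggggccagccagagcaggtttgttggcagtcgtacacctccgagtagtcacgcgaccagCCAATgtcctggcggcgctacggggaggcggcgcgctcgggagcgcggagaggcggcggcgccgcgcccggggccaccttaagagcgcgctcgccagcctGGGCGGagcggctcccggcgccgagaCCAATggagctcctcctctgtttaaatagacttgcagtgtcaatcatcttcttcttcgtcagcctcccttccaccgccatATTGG
Cdk6, chr5:3343643-3343942, summit at base 254: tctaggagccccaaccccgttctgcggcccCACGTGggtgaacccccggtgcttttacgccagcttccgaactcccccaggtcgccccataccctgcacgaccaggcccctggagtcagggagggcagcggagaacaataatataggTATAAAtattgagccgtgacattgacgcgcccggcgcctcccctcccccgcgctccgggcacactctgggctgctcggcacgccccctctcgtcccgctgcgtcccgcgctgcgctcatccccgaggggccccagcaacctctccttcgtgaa
Cdkn1a, second start, chr17:29093519-29093818, summit at base 76: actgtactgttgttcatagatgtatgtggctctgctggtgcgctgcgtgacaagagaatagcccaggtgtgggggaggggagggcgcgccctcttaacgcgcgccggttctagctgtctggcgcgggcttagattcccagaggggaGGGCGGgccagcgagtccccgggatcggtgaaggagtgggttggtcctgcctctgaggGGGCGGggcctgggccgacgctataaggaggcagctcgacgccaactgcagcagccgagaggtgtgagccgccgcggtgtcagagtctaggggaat
Cdkn1a, first start, chr17:29090729-29091028, no peak: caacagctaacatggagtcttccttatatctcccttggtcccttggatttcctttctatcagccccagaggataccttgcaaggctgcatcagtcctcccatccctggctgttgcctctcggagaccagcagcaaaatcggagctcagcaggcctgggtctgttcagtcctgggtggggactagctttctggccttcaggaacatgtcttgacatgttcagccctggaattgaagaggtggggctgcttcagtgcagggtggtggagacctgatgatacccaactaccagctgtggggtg
Cdk4, chr10:127063285-127063584, no peak: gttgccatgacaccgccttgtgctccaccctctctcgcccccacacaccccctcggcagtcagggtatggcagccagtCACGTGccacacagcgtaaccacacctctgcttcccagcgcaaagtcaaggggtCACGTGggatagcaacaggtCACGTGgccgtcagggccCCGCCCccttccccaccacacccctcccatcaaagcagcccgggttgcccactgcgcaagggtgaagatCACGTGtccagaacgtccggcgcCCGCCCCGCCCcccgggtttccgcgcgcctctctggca

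The second start of Cdkn1a, where the summit lay, had 64.7% G and C and 23 CpG dinucleotides, while the first start, which no peak covered, had 54.7% and 2. All windows had a median of 52.7% G and C and those overlapping a WT peak had 62.0%. The E-box searched was CACGTG, which MYC binds together with MAX. The Cdk4 window held 4 of them and the Cdk6 window 1, where 7.15% of all windows held at least 1. The GC box was GGGCGG, present in 35.7% of all windows. It occurred 3 times at Cdk4, where 2 of the matches share a base, and also 2 times at the second start of Cdkn1a and 1 time at Cdkn1b. The TATA box, searched as TATAAA, occurred 1 time at Cdk6, and 13.6% of all windows held it. The Cdkn1b window held 3 CCAAT boxes, spelled as the name says, beside 37.4% of all windows with at least 1. Sites for TEAD factors, searched as GGAATG, were in 1 of the members' 7 windows, that of the second start of Ccnd3, and in 14.7% of all windows. The Ccnd3 windows also held 2 GC boxes each, and the second held 1 CCAAT box. The GATA site, searched as AGATAA, was in none of the 7 windows and in 11.2% of all windows. E2F sites, absent from the 7 windows too, were in 8.07% of all windows. The forms of the E2F site searched began with TTGGCGC, and matches of all forms were counted together on both strands. A further form in this count was TTCGCGC. The last form of the E2F site that was searched, and counted together with the others, was TTCCCGC. Of the 2158 windows that overlapped a WT peak, 64.3% held a GC box and 10.0% an E-box. An E2F site was in 14.2% of them and a TEAD site in 15.3%. The CCAAT box (36.1%), the GATA site (7.55%) and the TATA box (6.63%) were in smaller shares than in all windows. These differences were not tested.

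The knockout list was short and held no peak of a member. Of its 330 peaks, 0 belonged to a member, against 26 of the 17587 WT peaks (0.148%), a share so small that 0 among 330 is near the background. None of the 26 WT peaks overlapped a knockout peak (0 of 26, which allows a share of up to 11.5% for counting error alone), where 1.12% of all WT peaks did, so that a count of 0 is near the background. The nearest knockout peak on the same chromosome was 1273 kb away. Prdm16 itself, the targeted gene, had 0 peaks in the knockout list and 18 in the WT list. In so short a list 0 is likely for almost any gene, so this count does not check the knockout. With 1 knockout library and unknown depths the difference between the lists was not tested. All 5 ventricular muscle genes looked up as a tissue check (Myh7, Myl2, Tnnt2, Actc1 and Nkx2-5) had a WT peak, as did 3 of 5 genes of other cells (Ptprc, Cdh5 and Wt1, but not Alb or Hbb-bt). In that order they had 9, 6, 2, 7 and 9 peaks, and 6, 5 and 1. These counts overlap, and 32.6% of all protein-coding genes had a peak, so the check does not tell muscle from other cells. Binding near a gene is not its expression, and the files used here hold no RNA.

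The strongest binding lay at 2 sites far from Myc, and all other member peaks had folds of up to 6.65. The fold enrichment of ChIP over background, given per peak by the authors' peak caller, had a median of 4.61 over the 26 peaks (2.75 to 11.5), against 4.0 over all WT peaks, and 18 of the 26 lay above the median of all WT peaks. The members had 7.41 peaks per Mb of sequence nearest to them, against 6.53 over all genes. Their peaks often lay far from the gene: 11 of 26 (42.3%, 95% Wilson interval 25.5 to 61.1%) were more than 50000 bp from the gene body, against 15.6% of all WT peaks. These 11 belonged to 3 genes, Myc (6 of them), Cdk6 and Ccnd2. Peaks of a single gene are not independent, which the interval ignores, so it does not speak for the list of genes. Myc and Cdk6 had 1.43 and 1.405 Mb of the 3.51 Mb of sequence nearest to the members. Within 1000 bp of either end of the gene, the start or the other, lay 4 of 26 (15.4%), against 16.1% of all WT peaks. Ends of Rb1, Ccnd2 and Myc are named here by coordinate, not by the direction of transcription. The distant peaks had a median fold of 5.42. It was 4.03 at the 10 peaks deeper inside a gene and 2.95 at the 4 peaks near gene ends. Deeper means more than 1000 bp from both ends of the gene body. The peaks at the listed start of Cdk6 (fold 3.20) and by the second start of Cdkn1a (4.45) are therefore among these 10. The classes do not separate peaks at starts from other peaks. The ranges overlapped, with 4.06 to 11.5 at the distant peaks and 2.75 to 4.86 near gene ends. Over all WT peaks the corresponding medians were 4.17, 4.07 and 3.58.

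**Figure D1:**
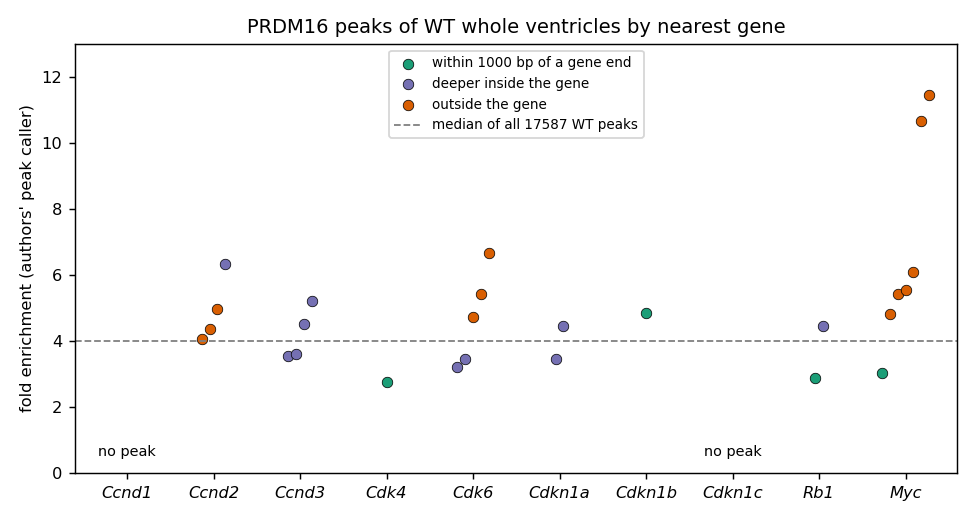
Fold enrichment of each WT peak (vertical axis, linear) by nearest gene (horizontal axis), with colour for the place of the summit and a dashed line at the median of all WT peaks (4.0). Each point is a peak of the WT list, and among these genes only Myc has peaks above 10, both outside the gene. The peaks at the listed start of Cdk6 and by the second start of Cdkn1a are coloured as deeper inside the gene.

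Among the D-type cyclins, Ccnd2 and Ccnd3 had 4 peaks each and Ccnd1 had none. The strongest peak of Ccnd2 (fold 6.34, rank 2231 of 17587) lay inside the gene, 1829 bp from its higher-coordinate end, at chr6:127150206-127150543, and also inside the lncRNA gene 9330179D12Rik. The other 3 lay beyond that end, at 20.7 kb (fold 4.35, in 9330179D12Rik too), 114 kb (4.06) and 123 kb (4.97). The last 2 were 8753 bp apart, and the next protein-coding gene, Tigar, was 156781 bp from the nearer of them. All 4 peaks of Ccnd3, the third D-type cyclin gene, were inside its 94.6 kb gene body. Their folds were 5.21, 4.503, 3.61 and 3.55, in the order of their coordinates, and the first, at chr17:47517887-47518526, lay 13087 bp past the first listed start. The summit nearest to a listed start of Ccnd3 was 2578 bp past the second start.

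Ccnd1 lacked a peak of its own, and the 2 nearest summits were assigned to LTO1. They lay 14745 bp (fold 3.27) and 15123 bp (3.98) from the Ccnd1 body, and neither overlapped a knockout peak. The first had 14.7 and 12.5 normalized reads (reads times a factor per library) in the RV libraries and 20.1 and 17.6 in the LV libraries, and the second had 13.9 and 6.75 in RV and 9.68 and 4.395 in LV. Counting any member within 50000 bp of a summit therefore gave 9 members with a peak. The next nearest peaks to Ccnd1 lay on opposite sides of it, at 141274 bp on the low-coordinate side and 181247 bp on the high-coordinate side.

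The kinase genes differed in the reach of their peaks. Cdk4, in a gene-dense stretch, had a single peak (fold 2.75, rank 16718) at chr10:127063043-127063265. Its summit was 384 bp before the start of Cdk4 and 2967 bp from the next gene, Marchf9, and it ended short of the promoter window shown above. Cdk6 had 5 peaks. Of these, 2 were at its low-coordinate end, 1547 bp apart, with folds of 3.20 (3 bp past the listed start, in the window shown above) and 3.45 (inside the overlapping lncRNA gene Gm36470). The other 3 were outside the gene and stronger, at 50.8 kb (fold 5.42), 257 kb (6.65) and 269 kb (4.71) on the low-coordinate side. The distant pair lay 11973 bp apart in a stretch whose only annotated genes within 50000 bp were pseudogenes, with Fam133b as the next protein-coding gene at 459961 bp from the stronger peak.

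**Figure D2:**
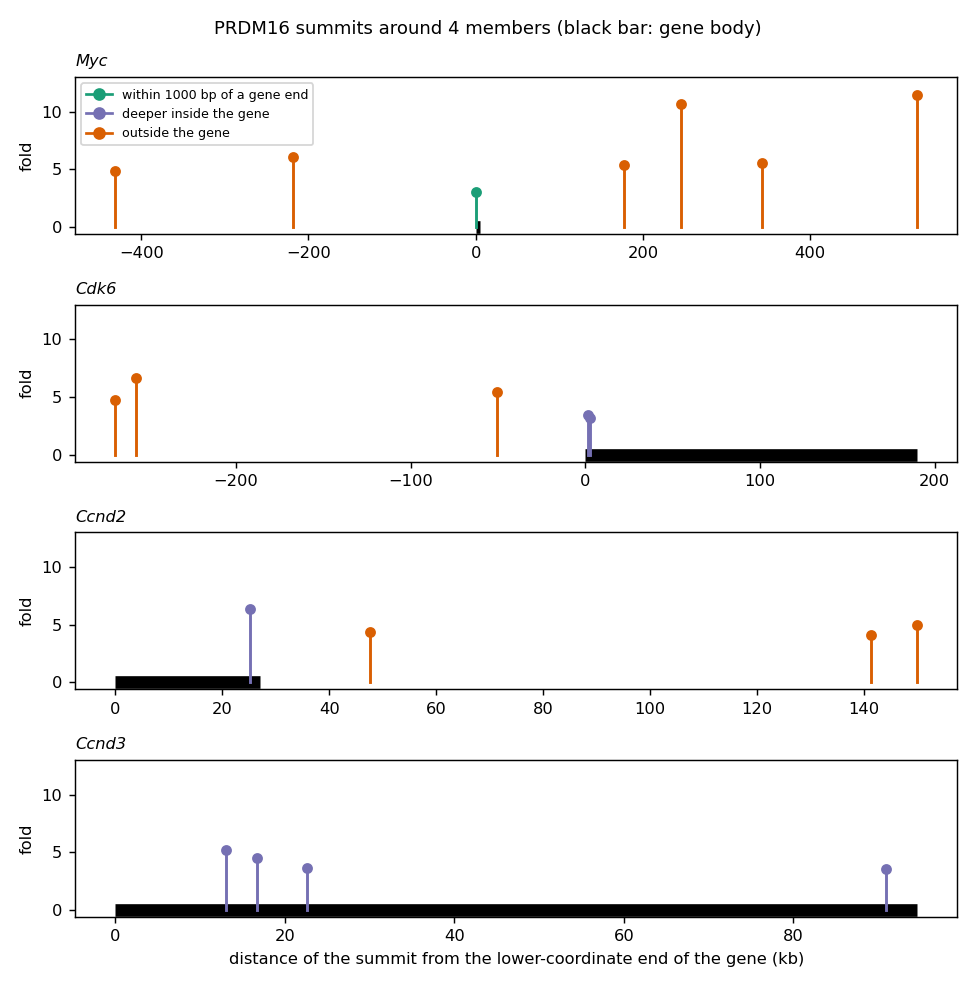
Fold enrichment (vertical axes) of each summit against its distance in kb from the lower-coordinate end of the gene (horizontal axes, a different scale in each panel) for Myc, Cdk6, Ccnd2 and Ccnd3. Black bars are gene bodies; Myc and Cdk6 have their weakest peaks at the gene and stronger ones up to 523 kb and 269 kb away, while all Ccnd3 peaks are inside the gene.

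The inhibitor genes and Rb1 had 5 peaks between them, with folds of 2.87 to 4.86. At Cdkn1b the peak (fold 4.86, chr6:134920287-134920633) had its summit 6 bp past the start of transcription. Cdkn1a had 2 peaks 1353 bp apart, the stronger (4.45, chr17:29093470-29093756) 175 bp before its second listed start and the weaker (3.46) 1178 bp after that start. The Rb1 gene, whose product is the target of the cyclin D kinases, had a peak 257 bp outside its higher-coordinate end (2.87, chr14:73326045-73326304) and a stronger peak inside the gene, 34231 bp from its lower-coordinate end (4.45). Cdkn1c, an imprinted gene, had none: the nearest summit was 62967 bp away inside Kcnq1, a potassium channel gene (fold 5.67), and the next 3 were in Kcnq1 too. That nearest peak had 21.7 and 21.2 normalized reads in RV and 27.5 and 27.8 in LV.

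Myc carried the most peaks, 7, spread over 960 kb, and the 2 strongest of the 26. The peak at the gene itself was weak (fold 3.04, rank 15430, chr15:61985444-61985682), with its summit 229 bp inside the lower-coordinate end. The strongest (11.5, rank 333, chr15:62513473-62513872) lay 523 kb beyond the other end, with no annotated gene within 50000 bp, and its next protein-coding gene was Gsdmc at 1262299 bp. The second strongest (10.7, rank 420, chr15:62230685-62231316) lay 241 kb beyond that end inside the lncRNA gene Pvt1, which also held the peak at 172 kb (5.42). A further peak lay on that side at 338 kb (5.53). On the low-coordinate side were peaks at 218 kb (6.07), inside the lncRNA gene D030024E09Rik, and 431 kb (4.83). With 1.43 Mb of sequence nearest to it, Myc had 4.90 peaks per Mb, fewer than the 6.53 over all genes. The genes most like Myc in log2 number of peaks, log2 fold of the strongest peak and log2 RV over LV of that peak, by Euclidean distance over 7129 genes, were Fbxw8 (distance 0.126), Etv6 (0.155) and Spon1 (0.215), with 7 peaks each.

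Whether PRDM16 bound these sites differently in the ventricles was asked with RV against LV. No member peak passed the test. By the authors' deposited table, none of 26 had an adjusted p under 0.05 (0.0% of all regions), and 0 of 26 had an unadjusted p under 0.05 (0.483% of all regions). limma on log2 of normalized reads plus 1, with 2 pools per ventricle, also called 0 of 26 (0.0284% of all regions), and 3 of 26 had an unadjusted p under 0.05 (6.32% of all regions). The log2 RV over LV ranged from -1.03 to 1.0, with 14 peaks below 0 (49.3% of all regions) and 12 above. By the authors' deposited table, 16 were below 0, since both Cdkn1a peaks had the other sign there (-0.04 each). The median was -0.11 with limma and -0.09 in the authors' deposited table, beside 0.01 and -0.0028 over all regions. limma's p-values rest on the spread between 2 pools per ventricle, moderated by a mean-variance trend over all regions. The test behind the authors' p-values is not named. In bulk ventricles fewer bound cells and less binding per cell cannot be told apart.

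Reads per peak were few, and how far depth or the spread between pools limited the calls was not tested. The 26 peaks held 5 to 28 and 3 to 24 reads in RV libraries A and B, and 3 to 38 and 2 to 28 reads in LV libraries A and B, where the letters carry no replicate number of the labels. SEs of the log2 differences were 0.34 to 0.66. In simulated reads over 17587 regions, limma called 50% of the 4-fold and 97.0% of the 8-fold differences placed where normalized reads averaged 8 or more. The spread between simulated libraries was set, not estimated from these data, and regions of any greater depth could be drawn. The 26 peaks averaged 4 to 25.5 reads, so these shares are not rates for them.

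Both RV libraries were below both LV libraries at 10 of 26 peaks (17.9% of all regions) and above them at 5 of 26 (17.6% of all regions). The 10 belonged to Myc, Cdk6 and Ccnd3 with 3 each and Ccnd2 with 1, and peaks of a single gene are not independent. With reads scaled to equal totals in peaks, a setting added after the data were seen, they were 6 (16% of all regions) and 5 (18.7%).

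**Figure D3:**
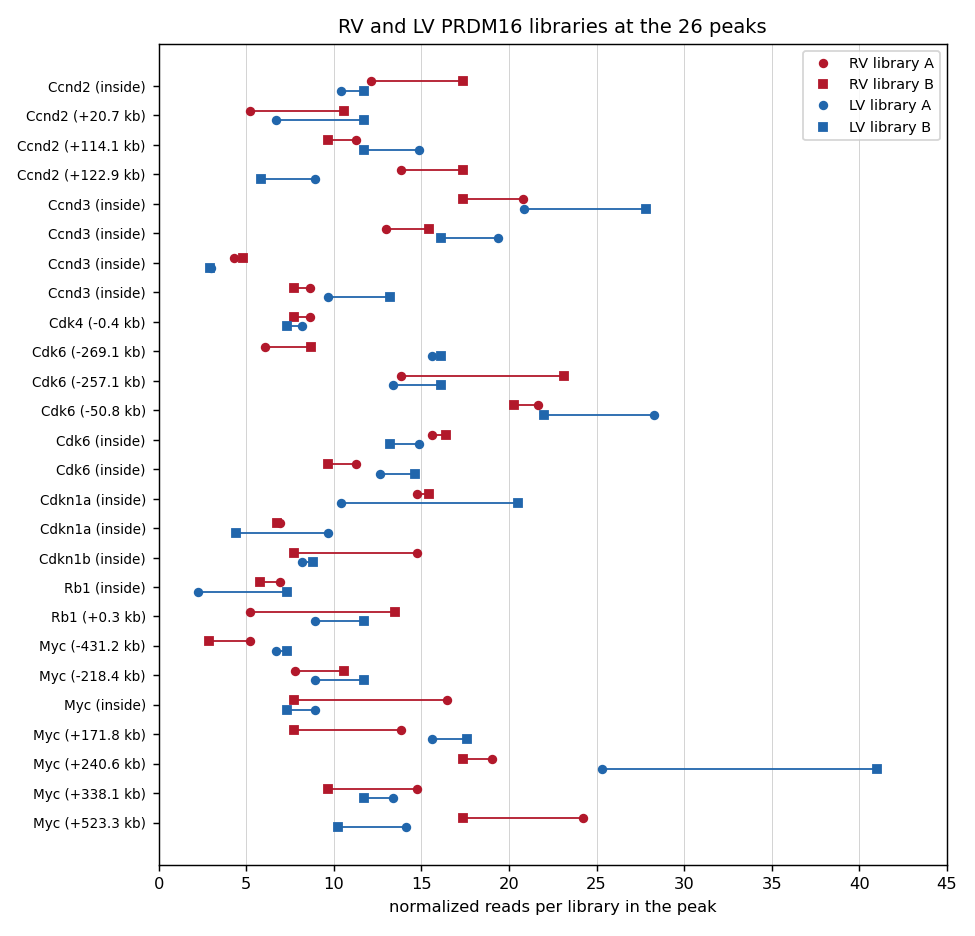
Normalized reads of each library (horizontal axis) in the 26 peaks (rows, with the distance of the summit from the gene body), for RV libraries A and B (red) and LV libraries A and B (blue), lines joining the libraries of a ventricle. RV and LV overlap at all peaks of the inhibitors, Rb1 and Cdk4, while the Myc peak at 241 kb and the Cdk6 peak at 269 kb have both RV libraries below both LV libraries.

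The 3 peaks of lowest p were distant ones of Cdk6, Ccnd2 and Myc. The Cdk6 peak at 269 kb, chr5:3071548-3072013, had 6.06 and 8.68 normalized reads in the RV libraries and 15.6 and 16.1 in the LV libraries. Both RV libraries were below both LV libraries, with a log2 RV over LV of -1.03 (SE 0.42, limma adjusted p = 0.706). It was -1.26 to -0.80 when any single library was left out. The Ccnd2 peak at 123 kb, chr6:127274873-127275322, had 13.9 and 17.4 in RV and 8.93 and 5.86 in LV. Here RV was the higher side in both libraries (1.0, SE 0.43, limma adjusted p = 0.724), and the value was 0.73 to 1.27 with a library left out. At the neighbouring Ccnd2 peak, 8753 bp away, reads were 11.3 and 9.65 in RV and 14.9 and 11.7 in LV, with both RV libraries the lower (-0.32, SE 0.41, limma adjusted p = 0.952). Whether these neighbours differ from each other was not tested.

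The 2 strong Myc peaks lay on opposite sides of 0. At the Pvt1 peak, 241 kb away, reads were 19.1 and 17.4 in RV and 25.3 and 41.0 in LV. RV and LV did not overlap there, with RV the lower (-0.79, SE 0.34, limma adjusted p = 0.726), and the value was -0.46 without LV library B and -1.13 without LV library A. The strongest peak, 523 kb away, had 24.2 and 17.4 in RV and 14.1 and 10.3 in LV, with both RV libraries the higher (0.72, SE 0.38, limma adjusted p = 0.794). The peak at the Myc gene had 16.5 and 7.72 in RV and 8.93 and 7.33 in LV, and the ventricles overlapped (0.44, SE 0.46, limma adjusted p = 0.924). The peak at 172 kb had 13.9 and 7.72 in RV and 15.6 and 17.6 in LV (-0.63, SE 0.40, limma adjusted p = 0.835). The peak at 431 kb had 5.20 and 2.89 in RV and 6.70 and 7.33 in LV (-0.70, SE 0.58, limma adjusted p = 0.888). At both, the RV libraries were the lower. The peaks at 218 kb (7.79 and 10.6 in RV, 8.93 and 11.7 in LV) and 338 kb (14.7 and 9.65 in RV, 13.4 and 11.7 in LV) overlapped between the ventricles. Over the 7 Myc peaks 5 were below 0 and 2 above.

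The remaining peaks of the D-type cyclins had log2 differences of -0.42 to 0.49. The strongest Ccnd2 peak had 12.1 and 17.4 in RV and 10.4 and 11.7 in LV, with both RV libraries the higher (0.37, SE 0.40, limma adjusted p = 0.932). The strongest Ccnd3 peak had 20.8 and 17.4 in RV and 20.8 and 27.8 in LV, which left the higher RV library just below the lower LV library (-0.33, SE 0.35, limma adjusted p = 0.926). The second Ccnd3 peak had 12.99 and 15.4 in RV and 19.4 and 16.1 in LV, and the fourth had 8.66 and 7.72 in RV and 9.68 and 13.2 in LV, so that RV was the lower at both. The third, with only 5 and 5 reads in RV and 4 and 2 in LV, was higher in RV. The Ccnd2 peak at 20.7 kb had 5.20 and 10.6 in RV and 6.70 and 11.7 in LV, which overlapped.

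The Cdk4 peak had 8.66 and 7.72 in RV and 8.19 and 7.33 in LV, so that the groups overlapped (0.07, SE 0.48, limma adjusted p = 0.994). At the Cdk6 start reads were 11.3 and 9.65 in RV and 12.7 and 14.7 in LV, with RV the lower (-0.36, SE 0.41, limma adjusted p = 0.938). The stronger distant peak of Cdk6, at 257 kb, had 13.9 and 23.2 in RV and 13.4 and 16.1 in LV, which overlapped. The peak at 50.8 kb had 21.7 and 20.3 in RV and 28.3 and 22.0 in LV, with RV the lower. The other peak inside the gene, of fold 3.45, had 15.6 and 16.4 in RV and 14.9 and 13.2 in LV, with RV the higher.

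No inhibitor or Rb1 peak separated the ventricles. The Cdkn1b peak had 14.7 and 7.72 in RV and 8.19 and 8.79 in LV (0.30, SE 0.46, limma adjusted p = 0.959). At the second start of Cdkn1a reads were 14.7 and 15.4 in RV and 10.4 and 20.5 in LV, so that both RV values lay between the LV values (0.04, SE 0.39, limma adjusted p = 0.995). The weaker Cdkn1a peak, with 6.93 and 6.75 in RV and 9.68 and 4.395 in LV, also had both RV values inside the LV range. The Rb1 peak near the higher-coordinate end of the gene had 5.20 and 13.51 in RV and 8.93 and 11.7 in LV (-0.25, SE 0.48, limma adjusted p = 0.967). The stronger Rb1 peak, inside the gene, had only 8 and 6 reads in RV and 3 and 5 in LV. As normalized reads these were 6.93 and 5.79 in RV and 2.23 and 7.33 in LV, which overlapped (0.50, SE 0.61, limma adjusted p = 0.946). Across these 5 peaks the log2 difference lay between -0.25 and 0.50, and a p above the threshold does not show that the ventricles bind alike.

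**Figure D4:**
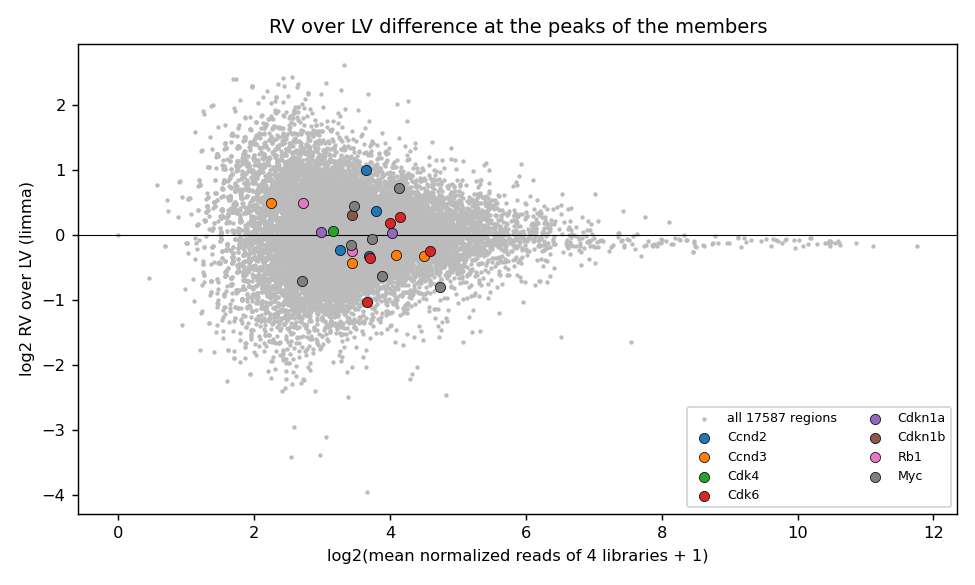
log2 RV over LV from limma (vertical axis) against log2 of mean normalized reads plus 1 (horizontal axis) for all 17587 regions (grey) and the 26 peaks coloured by gene. The member peaks lie between -1.03 and 1.0, inside the cloud of all regions at their read depth.

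Other genes of the cycle had peaks in varying numbers. In the list of G1/S partners and targets 9 of 18 genes had a peak, with the strongest at E2f8 (fold 11.0, 14170 bp from the gene) and E2f3 (5.56, with 6 peaks), which encode E2F factors. These were followed by E2f6 (3.86), E2f4 (3.83) and Ccne2 (3.62), a cyclin E. Of INK4 inhibitors and the CDK-activating kinase 2 of 7 had a peak, Mnat1 (2.95) and Ccnh (1.83), and none of the 4 INK4 genes did. In the MYC family and MAX network 6 of 12 had a peak, led by Mycn, the embryonic relative of Myc (8.31), Mxd4 (5.18), Mnt (3.55), Mlxip (3.10) and Max (3.05). Of the G2/M genes 5 of 14 did: Wee1, an inhibitory kinase of CDK1 (16.8, 13675 bp from the gene), Cdc25b (4.91), Mybl2 (4.53), Mki67 (4.53, 322645 bp away) and Cdc20 (3.11). The strongest Mycn peak had 34 and 79 reads in RV and 812 and 25 in LV, so that LV library A alone stood apart (-1.64, SE 0.63, limma adjusted p = 0.671). The mitotic genes Ccnb1, Cdk1, Plk1 and Aurkb had none. These shares, 50%, 28.6%, 50% and 35.7%, stand beside 32.6% of all protein-coding genes. Of the 37 peaks of the 4 lists, limma called 0 between RV and LV (0.0284% of all regions), and 3 had an unadjusted p under 0.05 (6.32% of all regions). The lists' medians of log2 RV over LV were -0.27, -0.31, -0.12 and -0.16.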

How the data were processed

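PRDM16 ChIP-seq peaks of Prdm16cKO and WT ventricles and a table of RV and LV values at the WT peaks were used. The submitters' processing notes list the genome builds mm10 and GRCm38 and, among tools, DESeq2, HOMER, MACS2 2.1.1.20160309 and BWA 0.7.12-r1039, without saying which did what. The pooling of replicates for each peak list is not described there. The deposited peak lists hold, in the usual layout of such lists, a score, the fold enrichment (a ratio) and −log10 q per peak, as the authors' peak caller gave them. The deposited table holds the signal of RV and LV, log2 values, p-values and adjusted p-values, per the file headers, with a test that is not named. Its log2 column is RV over LV, with a largest deviation of 1.2e-14 from that ratio.

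Each RV or LV value was 0.5 above the average of 2 whole read numbers, each multiplied by its library's factor. Reads were solved from this, with 1 solution at 100% of regions (tolerance 1e-07). A read was worth 0.866 and 0.965 normalized reads in RV libraries A and B and 0.744 and 1.47 in LV libraries A and B. Reads in peaks totalled 281797 and 267808 in RV and 330443 and 184244 in LV, and depth of the other libraries is unknown. On simulated data the reads were recovered at 100% of regions. limma 3.58.1 (R 4.3.3) was fitted with a mean-variance trend over all 17587 regions, with a pseudocount of 1 added to normalized reads before log2, and with Benjamini-Hochberg adjustment over all regions and a threshold of 0.05. The SE is limma's moderated value.

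Genes came from a RefSeq table of GRCm38.p6 without mitochondrial genes. A tie between overlapping genes went to the gene with the nearer end. Peak coordinates are 1-based. Territories were measured on a grid of 1000 bp. Scripts ran in Python 3.11.15 with matplotlib 3.10.9, scipy 1.17.1, pandas 2.3.3 and numpy 2.4.6. Named were all 10 members and, in each other list, up to 5 genes with the strongest peak. Members and lists were chosen with earlier results of these data known. Intervals and limits cover counting error only. Alternatives were stricter peak thresholds, other distances, pseudocounts of 0.1 and 5, a mean of at least 8 reads, scaling to equal totals and leaving out each library.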

Additional observations from a re-analysis of the deposited data

How the results depend on the processing

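Of the 26 peaks, 0 passed between RV and LV under any setting, where limma called 0 to 90 of all 17587 regions. It called 0 of all regions without either RV library, and a fit with a library left out has 1 library on its side, so these counts of 0 say nothing about stability. Among limma settings all 15 changes of sign came from leaving out a library, at 11 peaks, and the authors' deposited table differed in sign from limma at 2 peaks, both of Cdkn1a. With a library left out, log2 RV over LV ranged from -0.0048 to 0.14 at the Cdk4 peak, from -0.18 to 1.18 and from -0.86 to 0.37 at the Rb1 peaks (inside and at the higher-coordinate end), and from -0.42 to 0.49 and from -0.45 to 0.54 at the stronger and weaker Cdkn1a peaks. It ranged from -0.12 to 0.73 at Cdkn1b, from -0.080 to 0.62 at the Cdk6 peak at 257 kb and from -0.68 to 0.23 at the Ccnd2 peak at 20.7 kb. For Myc the range was -0.35 to 0.047 at 218 kb, -0.061 to 0.94 at the gene and -0.35 to 0.22 at 338 kb. The median over the 26 peaks stayed between -0.16 and -0.03 without any single library. No paired analysis was possible because the columns carry no replicate number of the labels.

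Counts of peaks depended on the threshold by construction, since fewer peaks enter. With a fold of at least 5 there were 9 member peaks at 4 genes, and 15 peaks lay within 50000 bp of their gene. The 4 peaks at gene ends (up to 1000 bp away) became 1, at Cdkn1b, when −log10 q had to reach 5, and 0 when the fold had to reach 5. Of the 15 peaks within 50000 bp, both RV libraries were below both LV libraries at 4 (17.9% of all regions at any distance) and above at 3 (17.6%). With scaled totals over all distances they were below at 6 of 26 (16% of all regions), where the main value was 10 (17.9%). Every RV and LV comparison rests on 2 to 38 reads per library in a peak, and how far depth limited it was not tested.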

Other observations

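The peak 141274 bp from Ccnd1, with Ano1 as its nearest gene at 36631 bp, had 8.66 and 13.51 normalized reads in RV and 25.3 and 24.9 in LV (log2 RV over LV -1.14, SE 0.37, limma adjusted p = 0.573). Ccnh had its peak 62330 bp away. It overlapped 1 of the knockout list and held 775 and 784 reads in RV and 764 and 771 in LV, with a fold of 1.83. The third-nearest peak to Cdkn1c, inside Kcnq1 at 68816 bp, had 13.9 and 11.6 normalized reads in RV and 6.70 and 4.395 in LV (1.08, SE 0.47, limma adjusted p = 0.731). The Mki67 peak at 322645 bp had 4 and 2 reads in RV and 15 and 7 in LV (-1.69, SE 0.57, limma adjusted p = 0.599). These were singled out after their values were seen.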
